A study of Mus musculus with 4 samples.

Results

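Sox9 is a single gene on mouse chromosome 11, and the peaks described here are the Gata6 binding intervals deposited around it. The members were chosen by position and by their number: every peak whose midpoint lies between 111.5 and 113.2 Mb of chromosome 11 (build mm9), a stretch of 1.7 Mb picked because earlier counts had shown it to be rich in peaks. The rule found 36 peaks, out of 959 on chromosome 11, and they make up 0.297% of the list over all 20 chromosomes. The count and the closeness of the peaks therefore describe how the region was picked and carry no test. Sox9 itself was placed at about 112.643 to 112.649 Mb on the plus strand, a position known to the nearest kb, so every distance below is rounded to 1 kb.

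Binding was mapped by chromatin immunoprecipitation and sequencing (ChIP-seq) in keratinocytes taken from dorsal mouse skin of a C57BL6/CBA background, grown on irradiated 3T3-J2 fibroblast feeders. All 4 libraries came from cells with the K14deltaNLef1 transgene, in which the keratin 14 promoter of basal epidermal cells drives a truncated Lef1, and all were infected with a lentivirus that overexpresses Gata6. The genotype of 1 Gata6 library is written K14deltaNLef1N. Gata6 was precipitated with 2 different antibodies, 1 library each, a Flag antibody served as the negative control in 1 library, and input DNA made up the last library. The extract protocol speaks of Lef1 complexes while the sample titles name Gata6 or Flag, and the titles were followed. No group had cells at a native Gata6 level or without the transgene, so the peaks are those of cells with added Gata6. A single overlap list stands for the series, with no value per library, and the read depth behind each peak is unknown.

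Sox9 encodes a transcription factor of the SRY-related HMG-box family. In skin it is needed to form the hair follicle stem cell compartment, and elsewhere it directs cartilage formation and testis development. The gene lies in a wide gene-poor stretch whose distant enhancers act on it in different tissues, and in humans rearrangements far upstream of it cause campomelic dysplasia and related disorders. Gata6 is a zinc-finger factor that binds GATA motifs. In skin it is known from the upper hair follicle and the sebaceous duct. In a RefSeq gene table of build GRCm38.p6, used only for the order of genes, the nearest named protein-coding neighbours of Sox9 (gene ID 20682) were the potassium channel gene Kcnj2 upstream, with Kcnj16 beyond it, and the zinc transporter gene Slc39a11 downstream, with the somatostatin receptor gene Sstr2 beyond it. Between Kcnj2 and Sox9 that table listed 5 long non-coding RNA genes, 1 predicted protein-coding gene (Gm11677) and 1 pseudogene, and between Sox9 and Slc39a11 it listed 9 long non-coding RNA genes.

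Gata6 peaks lay at the start of Sox9 and far out on both sides of it. A peak from 112643420 to 112643568 (149 bp) lay within 1 kb of the gene's start, upstream of it were 18 peaks reaching out to 803 kb, and downstream of it 17 peaks reached out to 478 kb. From the first to the last midpoint the peaks extended over 1.28 Mb. The share of peaks upstream was 50% (18 of 36, 95% Wilson interval 34.5 to 65.5, counting error only), while 67.2% of the region's length lies there. Per unit of length the downstream side was fuller, with 30.9 peaks per Mb against 15.7 upstream, a ratio of 1.96. Within an equal reach of 551 kb from the gene there were 11 peaks upstream and 17 downstream. The ratio was 1.38 when the upstream side was counted only from its first peak, with the downstream side kept at its full length. Peaks are not replicates, so the difference between the sides was not tested.

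**Figure D1:**
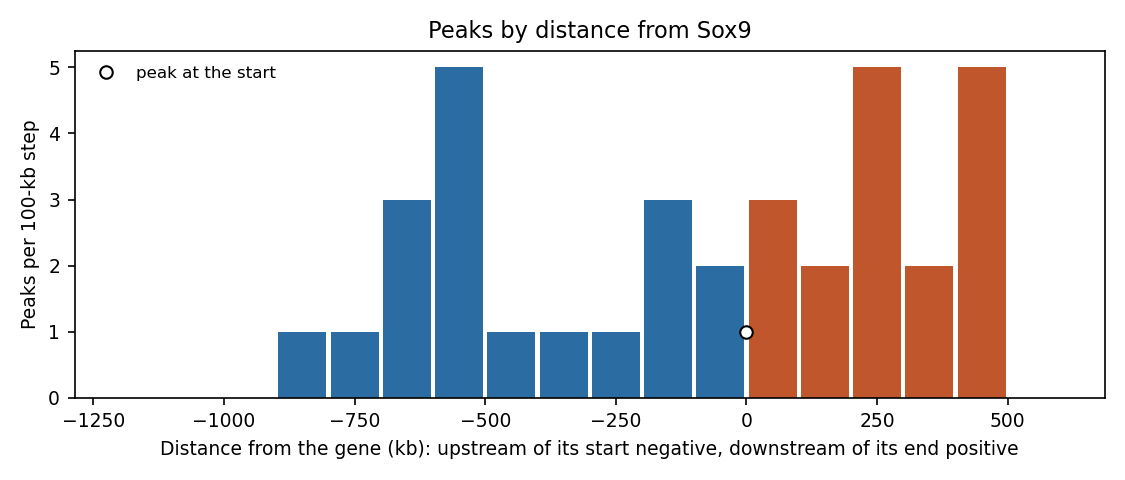
Number of Gata6 peaks (vertical axis) in steps of 100 kb from Sox9 (horizontal axis, kb), blue upstream of the gene's start and orange downstream of its end, with a white circle for the peak at the start. The last step on each side reaches past the end of the region. The fullest steps held 5 peaks each, at 500 to 600 kb upstream and at 200 to 300 kb and 400 to 500 kb downstream, and the steps beyond 900 kb upstream were empty.

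Each deposited peak name ends in a whole number, called the name number here. The labels do not say what it counts, and whether it follows peak strength was not tested. Along the chromosome the numbers fall into ascending series: sorted by number, the 959 peaks of chromosome 11 formed 75 such series. The highest number on the chromosome was 3020, and the median over its listed peaks was 647.

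The peak at the Sox9 start had name number 1272, which ranked 748 among the 959 of chromosome 11, in the quartile with the highest numbers. Few peaks lay close to it. The nearest peaks were 18.5 kb downstream, from 112661967 to 112662102 (136 bp, number 2324), and 51.3 kb upstream, from 112592129 to 112592281 (153 bp, number 110). Beyond those, the next peaks upstream were at 61 kb (112582209 to 112582366, number 1656) and 120 kb (112522904 to 112523029, number 297), and the next downstream were at 69 kb (112711966 to 112712069, number 9) and 75 kb (112717889 to 112718035, number 419). Apart from the peak at the start, no peak lay in the gene body. The tally within 200 kb was 5 peaks on each side.

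The peak of lowest number in the region was the one 69 kb downstream of Sox9. Its number, 9, was also the ninth lowest among those listed on chromosome 11, and its width was 104 bp. Of the other low numbers, 1 was nearer to the gene and 3 were farther out. Number 32 was 627 kb upstream (112016334 to 112016477, 144 bp), and number 83 was 582 kb upstream (112061090 to 112061235, 146 bp). Number 110 was the peak 51 kb upstream named above, and number 129 lay 399 kb downstream (113041513 to 113041635, 123 bp). Numbers up to 100 made up 3 of the region's 36 peaks (8.33%), against 92 of the 959 on the chromosome (9.59%), so the region was not richer in such numbers than its chromosome.

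**Figure D2:**
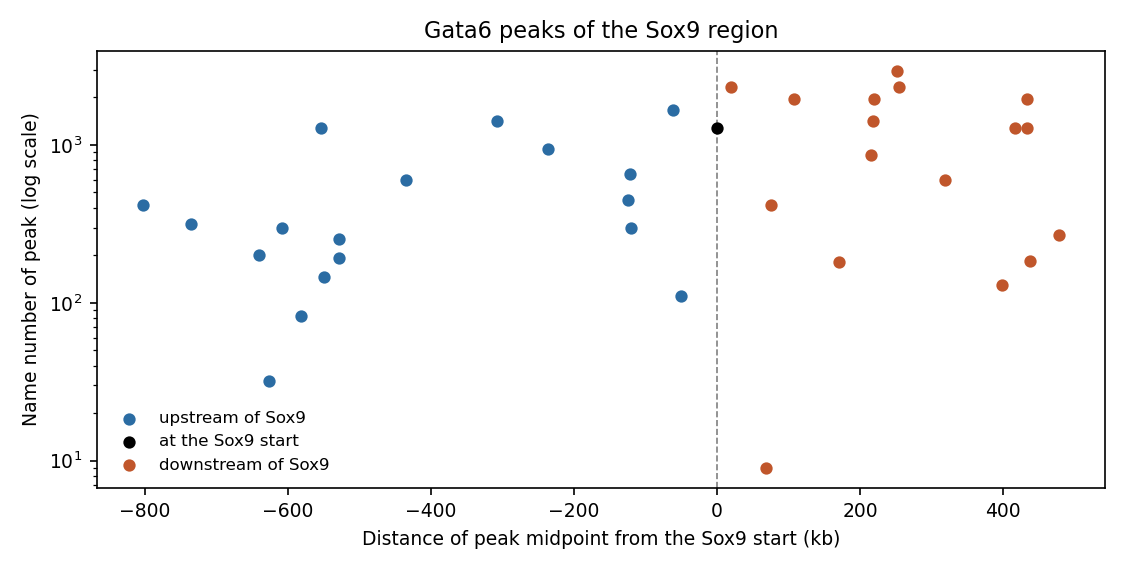
Name number (vertical axis, log scale) against the distance of the peak midpoint from the Sox9 start (horizontal axis, kb) for the 36 peaks of the region: blue upstream, black at the start, orange downstream. Numbers 32 and 83 lie in the block between 529 and 641 kb upstream, number 9 lies 69 kb downstream, and 5 peaks between 215 and 254 kb downstream have numbers from 863 to 2956.

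Upstream of Sox9 the peaks were gathered in a distant block and a nearer group, with few between. The block, described after its values were seen, held 8 peaks from 112002300 to 112114523, between 641 and 529 kb from the gene. Its name numbers were 202, 32, 296, 83, 1271, 146, 253 and 192 in order of position, and 6 of the 8 were in the lowest quartile of the numbers of chromosome 11. Widths there ran from 97 to 166 bp, the latter being the largest width in the list. Its last peaks, at 112114033 to 112114129 and 112114397 to 112114523, had midpoints only 0.379 kb apart, the closest spacing in the region and on chromosome 11.

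Farther out, the outermost peaks of the upstream side were at 803 kb (111840218 to 111840333, number 418) and 736 kb (number 315). Between 500 and 200 kb upstream only 3 peaks were listed, at 435, 308 and 236 kb, with numbers 597, 1422 and 946. The longest gaps between neighbouring peaks of the region were 127 kb, from 435 to 308 kb upstream, and 113 kb, from 236 to 124 kb upstream. Before its first peak the region was empty for 340.2 kb. Nearer the gene, 3 peaks from 112519313 to 112523029 lay within 3.62 kb of each other, 124 to 120 kb upstream. They had numbers 446, 654 and 297 and widths of 65, 102 and 126 bp, and the peak of 65 bp was the narrowest of the region.

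Downstream of Sox9 the median gap between neighbours was 25.0 kb, against 26.0 kb upstream, and 9 of the 17 name numbers were in the highest quartile of the chromosome. Between 215 and 254 kb from the start lay 5 peaks (112858280 to 112896588) with numbers 863, 1423, 1945, 2956 and 2325, of which 4 were in the highest quartile of the chromosome. The first 3 of them spanned 4.18 kb, and the 5 were described together after their values were seen. Another 5 peaks, from 113041513 to 113079870, lay 399 to 437 kb from the start, with numbers 129, 1273, 1275, 1946 and 183. In that group a low and a high number stood side by side: numbers 1946 and 183 were 2.96 kb apart. Numbers 1275 and 1946, both in the highest quartile, were 0.517 kb apart. The remaining downstream peaks were at 108, 171, 319 and 478 kb, with numbers 1944, 182, 598 and 267. The last of these, from 113121109 to 113121262, was the outermost.

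Upstream, the median name number was 306 (interquartile range 194.5 to 639.8, 18 peaks) and 3 peaks (16.7%, 95% Wilson interval 5.84 to 39.2) were in the highest quartile of the chromosome. Downstream, the median was 1273 (267 to 1945, 17 peaks) and 9 peaks (52.9%, 31.0 to 73.8) were in that quartile. These intervals give counting error only. The sides were compared by median number after the data were seen, and no test was made. Low numbers occurred on both sides, with 7 upstream peaks (38.9%) and 5 downstream peaks (29.4%) in the lowest quartile. Within the equal reach of 551 kb, which leaves out part of the distant block, the medians were 446 upstream and 1273 downstream. The median width was 128.5 bp upstream and 137 bp downstream.

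**Figure D3:**
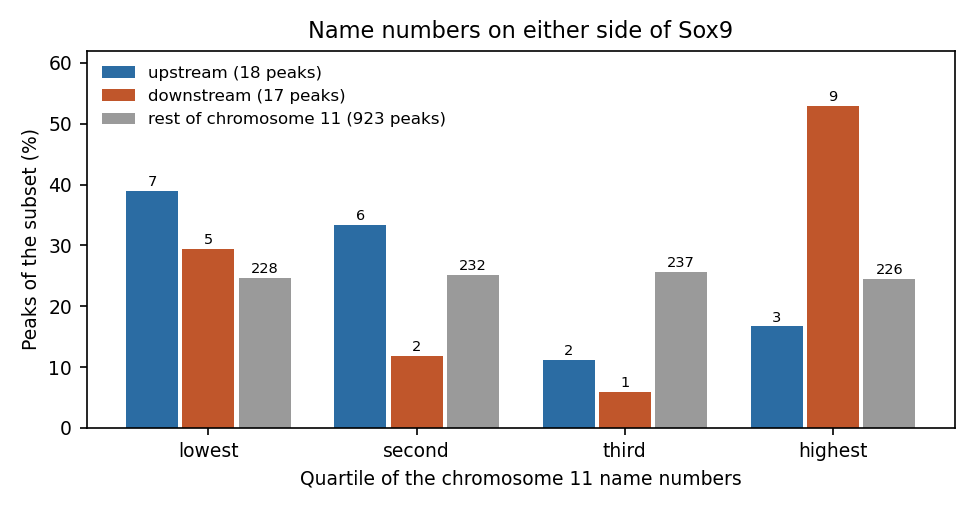
Share of peaks (vertical axis, %) in each quartile of the name numbers listed on chromosome 11 (horizontal axis), for the 18 peaks upstream of Sox9, the 17 downstream and the 923 elsewhere on the chromosome, with the number of peaks on each bar. The highest quartile held 9 downstream and 3 upstream peaks, and the second quartile held 2 and 6.

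Over the whole region there were 12 peaks in the lowest quartile (33.3%, 95% Wilson interval 20.2 to 49.7), 8 in the second (22.2%, 11.7 to 38.1), 3 in the third (8.33%, 2.87 to 21.8) and 13 in the highest (36.1%, 22.5 to 52.4). Each quartile holds about 25% of the chromosome's peaks. The intervals give counting error only, peaks are not replicates, and no departure from that share was tested. In the region the median percentile among the listed numbers of chromosome 11 was 42.5 (95% interval 24.3 to 77.9). Of the 36 peaks, 18 belonged to 8 runs of directly following numbers, and in each run the position rose with the number. The rise follows largely from the numbering, since the 959 peaks of the chromosome form only 75 ascending series. Such runs were not counted in other stretches of the chromosome, so they are not shown to be particular to this region. The longest reach, 971 kb, was that of numbers 1271 in the distant upstream block, 1272 at the Sox9 start and 1273 downstream. Numbers 418 and 419 were 878 kb apart, and 597 and 598 were 754 kb apart, each with a peak on either side of the gene. Numbers 1944, 1945 and 1946 were all downstream. In all, the 36 peaks came from 25 of the 75 series of the chromosome, and no series gave more than 4 of them.

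Neighbouring peaks of the region were 26.0 kb apart in the median (interquartile range 5.42 to 60.9 kb, 35 gaps), against 38.4 kb (12.1 to 114.7 kb, 921 gaps) on the rest of chromosome 11. Gaps over 100 kb made up 2 of its 35 (5.71%), against 27.0% on the whole chromosome. A neighbour within 5 kb was found for 15 of its 36 peaks (41.7%), against 22.4% of the 959, and within 20 kb for 26 peaks (72.2%), against 53.3%. Linked at up to 20 kb from peak to peak, 14 of its peaks (38.9%, against 28.7% of the 959) formed 4 groups of at least 3, the last 3 of which are described above. The remaining group was the first 3 peaks of the distant block, over 32.8 kb. The largest group in the region had 5 peaks, a size reached by 16 groups on the chromosome. These values follow in part from the choice of a full region and were not tested.

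**Figure D4:**
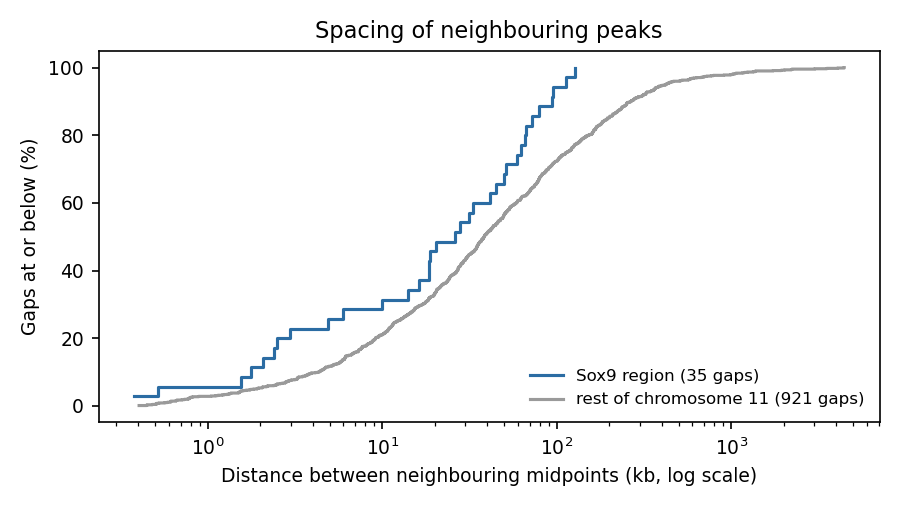
Cumulative share of gaps between neighbouring midpoints (vertical axis, %) by gap length (horizontal axis, kb, log scale) for the Sox9 region (blue, 35 gaps) and the rest of chromosome 11 (grey, 921 gaps). The longest gap in the region was 127 kb, whereas gaps elsewhere ran to 4446 kb.

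The peaks were slightly narrower in the median than those elsewhere. The region's median width was 136.5 bp (interquartile range 114.0 to 153.3 bp), against 143 bp (120.0 to 157.0 bp) on the rest of the chromosome, where 93 of 923 peaks (10.1%) were 83 bp wide or narrower. In the region 1 of 36 (2.78%) was that narrow. Widths are those of overlap intervals and not of whole binding sites. The peaks with the 5 lowest numbers, 9, 32, 83, 110 and 129, had widths of 104, 144, 146, 153 and 123 bp.

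Set against its chromosome, the region held 21.2 peaks per Mb, 2.62 times the 8.09 per Mb of chromosome 11 as a whole. The Mb from 112000001 to 113000000, which holds the gene, had 28 peaks, the most of the 119 windows of 1 Mb on the chromosome (median 7), and ranked 7 in the list as a whole, level with the other windows of 28 peaks. The Mb before it had 2 peaks and the Mb after it 15. Stretches of the same 1.7 Mb, taken every 100 kb along the chromosome and clear of the region, reached 36 peaks in 12 of 1135 positions (1.06%). Neighbouring positions share most of their length, so the 12 need not be separate stretches. The fullest of them, from 98600001 to 100300000, held 45 peaks. Over this longer length the Sox9 region was therefore not the fullest of chromosome 11.

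**Figure D5:**
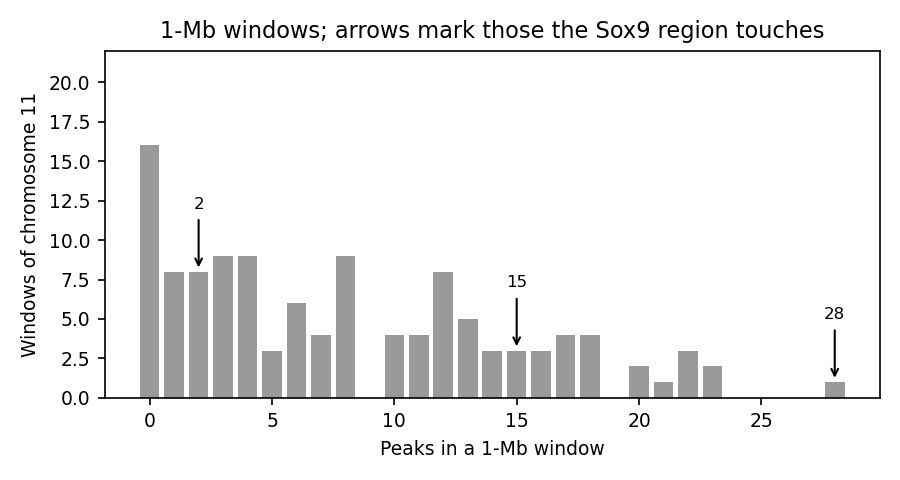
Number of 1-Mb windows of chromosome 11 (vertical axis) by the number of peaks they hold (horizontal axis). Arrows mark the counts of the windows that the Sox9 region touches, with 2, 28 and 15 peaks, and the window with 28 stands alone at the right.

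The windows of chromosome 11 nearest in count to the Sox9 window held 22 or 23 peaks each. They began at 20000001 and 117000001 (23 peaks) and at 59000001, 86000001 and 94000001 (22 peaks). The median name number was 597.5 in the Sox9 window and 454.5 to 951 in those 5, and the median gap was 26.0 kb against 20.6 to 33.4 kb. The median width was 136.5 bp in the Sox9 window and 117.5 to 148.5 bp in those 5. In these respects the Sox9 window lay inside the range of the others. Its longest gap of 127 kb was shorter than theirs, which ran from 160 to 328 kb. The Sox9 window also held more peaks, 28 against 22 or 23 in the others. The shorter gap was therefore not shown to be a trait apart from the count. The peaks of lowest number in those windows were 23, 161, 68, 6 and 2, against 9 in the Sox9 window.

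A long empty stretch lay upstream of the peaks and a shorter one downstream. Before the first peak, at 111840218, no peak was listed for 1.52 Mb, back to one from 110324682 to 110324830 (number 1654). Only 9 of the 958 gaps on chromosome 11 were longer. After the last peak the next was 228 kb on, from 113349055 to 113349214 (number 711). Gaps over 100 kb, a limit well below 228 kb, made up 27.0% of those on the chromosome. The share of gaps longer than 228 kb was not counted.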

How the data were processed

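The members, the lists and the measures were chosen with earlier results of these data known. The deposited list of 12137 peaks gives, per the submitters' processing notes, intervals on build mm9 from a workflow that names BWA and HOMER. Roles, versions, the lists that were intersected, the overlap required, the threshold for calling a peak and the part played by the controls (Flag, input) are not given in those notes or in the labels. The score column deposited by the authors is 0 in all rows, and the strand column holds a plus sign throughout, so both were left out. Starts and ends were read as BED coordinates and are given 1-based, and peaks were placed by midpoint. Python 3.11.15 was used with pandas 2.3.3, SciPy 1.17.1, NumPy 2.4.6 and, for plots, matplotlib 3.10.9. The Sox9 position came with the rule for the region. A peak within 1 kb of the gene's start was counted as at the start. Density was peaks divided by length, for the chromosome by the span from its first to its last peak. Number percentiles are ranks among the listed peaks of chromosome 11, and the counting routines were tested on simulated data.

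Peaks named are the 3 nearest the gene on each side, the 5 lowest name numbers, members of groups of 3 or more within 20 kb of the next, and the outermost, narrowest and widest. Other peaks named were chosen after their values were seen. The design planned a motif search in the Sox9 promoter, which was not analysed here. Gene order came from a RefSeq table of GRCm38.p6, and no coordinates were taken from it. No test was run, since peaks are not replicates and the region was picked by its peaks.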

Additional observations from a re-analysis of the deposited data

How the results depend on the processing

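Of 37 alternative values, 36 stayed within the interval of the reported value, or within 1.5 times of it where it was a count or a ratio. The exception was the median percentile of the name numbers, 42.5 among listed numbers. It was 17.3 when each number was taken as a percentage of the chromosome's highest, 3020. That scale also counts numbers not in the list and changes the values of the whole chromosome, not of the region alone. The median number itself was 521.5 in the region and 647 over the chromosome. The interval of the median percentile was wide, 24.3 to 77.9, so a value inside it can still differ. The percentile was 49.4 with peaks over 83 bp only. It was 47.0 with the region's ends moved in by 100 kb and 42.5 with them moved out. The number of peaks was 34 to 36 under all 6 settings tried, with 35 wider than 83 bp and 34 after merging within 1 kb. The density relative to the chromosome was 2.34 to 2.88 under its 5 settings. The downstream to upstream ratios of density (1.38 to 2.07) and of median number (2.85 to 4.29, reported as 4.16) and their 9 settings were chosen after seeing the data. No paired analysis was possible because the list has no values per library, and for the same reason no library could be left out. Read depth, which limits which sites reach the list, is unknown here.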

Other observations

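The stretches of equal length on either side of the Sox9 region differed in how many peaks they held. In the 1.7 Mb before it, from 109800001 to 111500000, only 2 peaks were listed, 1.18 per Mb, at 110300752 to 110300910 (number 367) and 110324682 to 110324830 (number 1654). In the 1.7 Mb after it, from 113200001 to 114900000, there were 10 peaks, 5.88 per Mb, with a median name number of 683.5. The lowest number there was 10, on a peak from 113911947 to 113912108 (162 bp), which follows directly on number 9, the peak 69 kb downstream of Sox9. Next to it lay number 338, from 113912619 to 113912773. A peak of the largest width in the list, 166 bp, lay at 113784533 to 113784698 (number 102).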
